A study of Mus musculus with 4 samples.

Results

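Genes that encode ligands of T cell checkpoint and costimulatory receptors, 10 of the 31053 genes counted, were followed through the cell types of B16 mouse melanomas. They were chosen by name, with earlier results of these data known. The 10 were Cd274 and Pdcd1lg2, Cd80 and Cd86, Cd40, Pvr and Nectin2, Lgals9, Tnfsf9, and Icosl. Male C57BL/6 mice, either wild-type (WT) or labelled as a knock-out (KO) of ATPIF1, a protein that holds back the mitochondrial ATP synthase, carried B16 cells, a transplantable melanoma line of the same strain, in the right flank for 12 days and received no drug that the labels name. The labels give 6 mice, without saying whether per genotype, and do not describe the knock-out allele or the cells in which it acts. Tumour tissue of all mice of a genotype was mixed, CD45+ cells were sorted, and each mix gave 1 droplet library of 5′ RNA ends. With 1 pooled library per genotype, no difference has a replicate check and no test between genotypes was possible. All 95% intervals below cover counting error only.

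T cells read an antigen together with a costimulatory signal from the cell that presents it. PD-L1 and PD-L2 (Cd274, Pdcd1lg2) bind PD-1 and restrain the T cell, while CD80 and CD86 bind CD28, which stimulates, and CTLA-4, which restrains. CD40 is the receptor through which helper T cells license dendritic cells. PVR and nectin-2 are shared by the stimulating receptor CD226 and the inhibitory receptor TIGIT, galectin-9 (Lgals9) is a ligand of TIM-3, 4-1BBL (Tnfsf9) engages 4-1BB and ICOSL engages ICOS. Dendritic cells that mature turn on many of these ligands as they leave for lymph nodes, and PD-L1 is a well-known target of interferon gamma in myeloid cells.

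The upstream sequences of Lgals9, the ligand that ran opposite to the others in mature dendritic cells, and of Cd274, the PD-1 ligand with the higher level there, are shown because levels of interferon response genes moved beside these ligands in the comparison of the libraries. RefSeq promoters on GRCm38.p6 matched 6 of the 10 genes (Cd274, Pdcd1lg2, Cd80, Nectin2, Lgals9 and Icosl), and the 250 bases before each start were searched on both strands. The 3 motifs were these: the interferon gamma element GAS (TTCNNNGAA), a core of the interferon-stimulated response element ISRE (GAAA, any 2 bases, GAAA) and a kappaB site (GGG, any 3 bases, TTCC). Capitals mark a match. The Lgals9 window is chr11:78984925-78985174 on the minus strand, and the Cd274 window is chr19:29367188-29367437 on the plus strand, inside the RefSeq gene span that begins at 29362107.
Lgals9: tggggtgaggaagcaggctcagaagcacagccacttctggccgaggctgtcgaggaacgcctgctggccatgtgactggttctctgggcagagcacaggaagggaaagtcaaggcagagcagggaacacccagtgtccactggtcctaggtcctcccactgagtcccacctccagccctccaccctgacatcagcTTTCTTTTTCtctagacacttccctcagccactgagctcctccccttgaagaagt
Cd274: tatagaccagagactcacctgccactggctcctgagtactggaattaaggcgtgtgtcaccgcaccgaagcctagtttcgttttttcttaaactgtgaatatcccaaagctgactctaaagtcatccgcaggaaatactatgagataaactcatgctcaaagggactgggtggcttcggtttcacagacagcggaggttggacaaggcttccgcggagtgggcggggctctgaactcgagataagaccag
The match in Lgals9 was the ISRE core, read on the other strand as TTTCTTTTTC, 55 bases before the start. It was the only match in the 6 windows to any of the 3 motifs, which were present in 7.02% (GAS), 2.98% (ISRE core) and 4.65% (kappaB) of 32851 promoters. A match describes letters and not a site in use, and its absence says only that these letters are not in the window.

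Barcodes with at least 1000 UMIs (counted molecules), at least 500 genes and at most 10% mitochondrial UMIs were kept, 4370 in the library labelled WT and 3211 in the library labelled KO, with medians of 4314.5 and 4266 UMIs. They shared 29 barcodes, where 19.0 are expected by chance. Cells were assigned by UMIs of marker genes, none of them a ligand described here. Atpif1 was at 576 CPM (UMIs of a gene scaled to the total UMIs of the class or, here, the library) over the cells of the library labelled WT and at 679 CPM over those of the library labelled KO, so its level goes against the knock-out label. A 5′ tag outside the deleted part would check nothing. Every direction between the libraries therefore rests on the label. The gates gave 544 and 452 dendritic cells, 353 and 176 monocytes, 917 and 833 macrophages, 459 and 17 neutrophils, 343 and 41 B cells and 49 and 14 melanoma cells, with 599 and 813 T or NK cells for comparison. Between the libraries no direction is read for neutrophils, pDC and melanoma cells, which number under 20 in the library labelled KO. Cells in no gate (900 and 760) or in the gates of 2 or more lineages (206 and 105) were left out of the classes.

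Markers outside the gates matched the names of the melanoma, B cell and neutrophil classes. Monocytes and macrophages were less clearly apart. The macrophage marker Csf1r was at 279 and 299 CPM in monocytes and at 324 and 308 CPM in macrophages. The monocyte marker Plac8 was at 1472 and 2368 CPM in monocytes and 156 and 520 CPM in macrophages. In plasmacytoid dendritic cells Plac8 was at 2324 and 2950 CPM. Melanoma cells held Sox10, a melanocyte transcription factor, at 159 and 191 CPM and the leukocyte gene Ptprc at 3.64 and 2.61 CPM, in spite of the CD45 sort. B cells held Pax5 at 240 and 266 CPM, and neutrophils S100a8 at 24983 and 18135 CPM. The 17 neutrophils of the library labelled KO also carried the antigen presentation gene Cd74 at 14329 CPM, against 1306 CPM in the library labelled WT, and its part in their ligand levels was not tested. Dendritic cells fell into mature cells (Ccr7, Fscn1, Ccl22; 147 and 86 cells), the conventional types cDC1 (82 and 127) and cDC2 (227 and 221), and plasmacytoid cells (pDC, 88 and 18). A single mature dendritic cell of the library labelled KO held 1129 UMIs of the fibroblast genes Col1a1, Col3a1 and Dcn and 9 UMIs of the ligands.

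Mature dendritic cells held the highest level of most of these ligands. Among classes of at least 20 cells 9 of 10 ligands were highest there in the library labelled WT, and 9 of 10 in the library labelled KO. Against all other dendritic cells of the same library, 9 of 10 ligands were at least 1.5-fold higher in the library labelled WT, where 17.4% of 8970 genes were that much higher, and 1 was lower, as were 34.9% of genes. Of the 9 ligands of the library labelled KO with at least 20 UMIs 8 were higher (18.9% of genes) and 1 was lower (33.8%). The median log2 ratio of the ligands was 2.39 and 2.16, that of all genes -0.25 and -0.23. Of 12 genes of dendritic cell maturation outside the gate, such as Relb, Cd83 and Il12b, 12 were higher in each library.

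**Figure D1:**
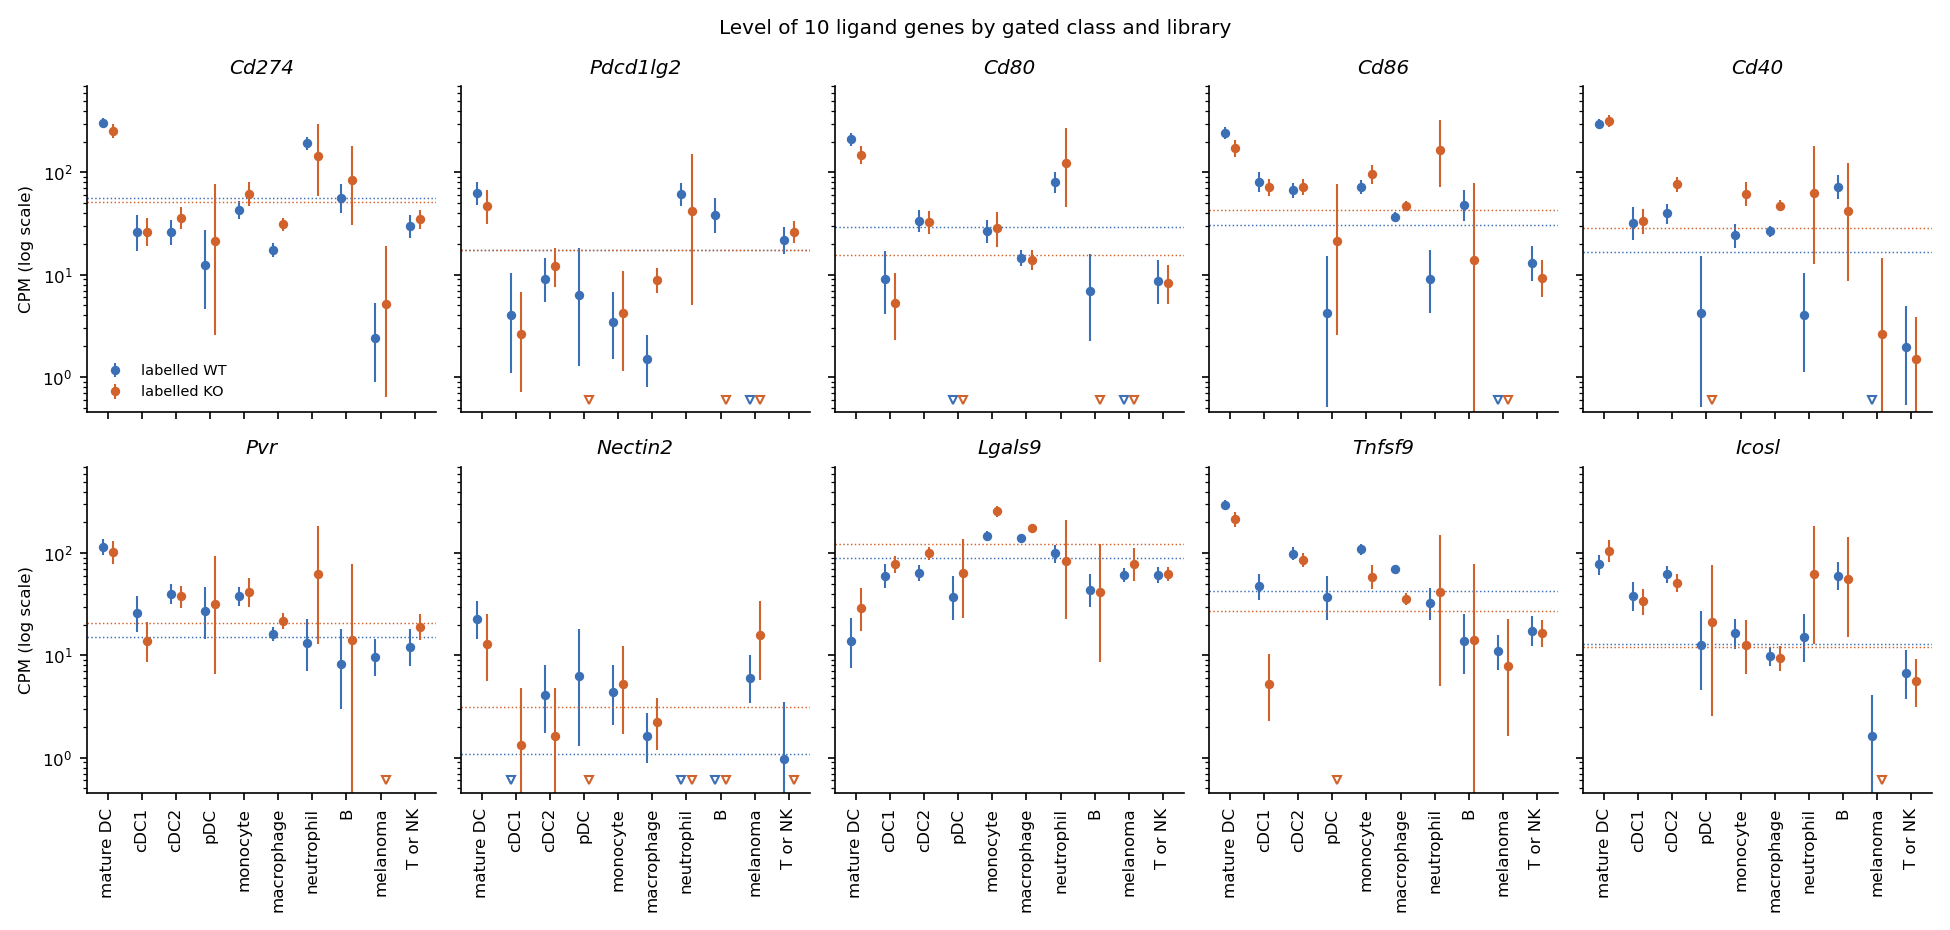
Level of each ligand gene in CPM (log axis) by class in the library labelled WT (blue) and the library labelled KO (orange); bars are 95% Poisson intervals, open triangles mark classes with 0 UMIs, and dotted lines give the level in empty droplets. Mature dendritic cells hold the highest level for Cd274 at 303 and 256 CPM, while Lgals9 is lowest there at 13.8 and 29.2 CPM.

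Cd274, which encodes PD-L1, was at 303 CPM (95% interval 270 to 338) in mature dendritic cells of the library labelled WT, and stood at 256 CPM (218 to 299) in those from the library labelled KO. Other dendritic cells held 24.2 and 31.4 CPM, so the mature cells stood 12.5-fold and 8.14-fold higher. Without thinning, 72.1% and 73.3% of mature cells had a Cd274 UMI, and 29.3% and 23.3% after each cell was thinned to 1000 UMIs. These shares lay well above the thinned 2.50% and 4.18% of T or NK cells. Neutrophils came next, with 192 CPM (166 to 222) in the library labelled WT and 146 CPM (58.5 to 300) in the library labelled KO, and did not overlap with the mature cells in the former. Of thinned neutrophils in the library labelled WT 14.8% held Cd274. B cells, at 56.3 and 84.0 CPM, and monocytes, at 43.0 and 61.9 CPM, had overlapping intervals. Macrophages were low at 17.4 and 31.2 CPM, and melanoma cells held 2.43 and 5.23 CPM.

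Pdcd1lg2, which encodes PD-L2, was at lower levels than Cd274. Mature dendritic cells held 62.9 CPM (48.4 to 80.3) and 47.0 CPM (31.5 to 67.5), against 7.27 and 7.57 CPM in other dendritic cells, 8.64-fold and 6.21-fold higher. Neutrophils of the library labelled WT were at 61.0 CPM (46.5 to 78.5), not apart from the mature dendritic cells beyond counting error. B cells held 38.5 CPM in that library and 0 UMIs in the library labelled KO, where 41 cells were gated and the interval reached 51.6 CPM. T or NK cells, at 21.9 and 26.2 CPM, were above cDC2, at 9.16 and 12.0 CPM, and cDC1, at 4.03 and 2.64 CPM. Melanoma cells had 0 UMIs in both libraries. Of the 41 mature cells with Pdcd1lg2 in the library labelled WT 36 also held Cd274, where the product of the separate shares gives 29.6 cells, and of 16 in the library labelled KO 15 did, where it gives 11.7.

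Cd80 and Cd86, the shared ligands of CD28 and CTLA-4, were both highest in mature dendritic cells and differed in the classes that followed. Cd80 stood at 210 CPM (183 to 240) and 149 CPM (120 to 183) in mature cells, 9.63-fold and 7.53-fold above other dendritic cells. It was followed in the library labelled WT by neutrophils at 80.3 CPM (63.6 to 100.0), cDC2 at 33.6 CPM and monocytes at 26.5 CPM. pDC and melanoma cells had 0 UMIs of Cd80 in both libraries. Cd86 stood at 244 CPM (214 to 276) and 172 CPM (141 to 208) in mature cells, 3.91-fold and 2.43-fold above other dendritic cells. Among classes of at least 20 cells, cDC1 (80.5 and 72.0 CPM), monocytes (72.5 and 96.6 CPM) and cDC2 (67.2 and 72.2 CPM) came next. Their intervals overlapped in each library. Neutrophils of the library labelled WT held 9.15 CPM of Cd86 (4.18 to 17.4) beside 80.3 CPM of Cd80. The 17 neutrophils of the library labelled KO held 166 CPM of Cd86 (71.8 to 328) beside 125 CPM of Cd80 (45.8 to 272). Of the mature cells with Cd80, 65 of 93 and 28 of 44 also held Cd86, near the 58.8 and 24.0 cells that the product of the shares gives.

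Cd40 was highest in mature dendritic cells, and the class that followed differed between the libraries. Mature cells held 301 CPM (268 to 336) and 319 CPM (276 to 367), 9.22-fold and 5.71-fold above other dendritic cells. B cells followed at 72.8 CPM (54.6 to 95.3) in the library labelled WT and were at 42.0 CPM (8.66 to 123) in the library labelled KO. There cDC2 came next at 77.1 CPM, and monocytes (61.9 CPM) and macrophages (47.4 CPM) also stood above the B cells, with overlapping intervals. T or NK cells (1.95 and 1.499 CPM) were at the low end. Neutrophils held 4.07 CPM in the library labelled WT, and the 17 neutrophils of the other held 62.4 CPM (12.9 to 182). Of thinned mature cells 24.5% and 24.4% held a Cd40 UMI, against 0.167% and 0% of T or NK cells (1 of 599 and 0 of 813).

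Among the ligands shared by CD226 and TIGIT, Pvr was counted more broadly than Nectin2. Pvr was at 116 CPM (95.9 to 139) and 102 CPM (78.4 to 131) in mature dendritic cells, 3.38-fold and 3.77-fold above other dendritic cells. cDC2 at 40.2 and 37.7 CPM and monocytes at 37.8 and 42.0 CPM did not differ beyond counting error. Nectin2 rested on 92 and 51 UMIs over all cells. It was at 22.6 CPM (14.3 to 33.9) and 12.96 CPM (5.59 to 25.5) in mature dendritic cells and at 6.07 and 15.7 CPM in melanoma cells, where Pvr was at 9.72 CPM and 0 UMIs. Melanoma cells were 1.12% of cells in the library labelled WT and held 16.3% of its Nectin2 UMIs, 5.44% of its Lgals9 UMIs and 3.27% of its Pvr UMIs. Their median depth there was 52249 UMIs, above every other class. Neutrophils and B cells had 0 UMIs of Nectin2 in both libraries.

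Lgals9, which encodes galectin-9, ran opposite to the others. Its levels were highest in monocytes, at 147 CPM (132 to 164) and 257 CPM (226 to 292), and in macrophages, at 141 CPM (133 to 149) and 177 CPM (166 to 188). In mature dendritic cells it was at 13.8 CPM (7.52 to 23.1) and 29.2 CPM (17.3 to 46.1), the lowest class in both libraries, 4.34-fold and 3.05-fold below other dendritic cells. Empty droplets held 90.4 and 123 CPM of Lgals9, more than the mature cells. T or NK cells held 61.3 and 62.2 CPM and melanoma cells 61.1 and 78.4 CPM. Of thinned monocytes 11.3% and 22.7% held a UMI, and 5.51% and 4.67% of T or NK cells.

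Tnfsf9, which encodes 4-1BBL, was at 294 CPM (261 to 329) and 215 CPM (180 to 255) in mature dendritic cells, 3.90-fold and 4.46-fold above other dendritic cells. In the library labelled WT monocytes followed at 110 CPM and cDC2 at 98.8 CPM with overlapping intervals, then macrophages at 69.9 CPM and cDC1 at 47.3 CPM, each apart from the class before. cDC2 of the library labelled KO were at 86.4 CPM, monocytes at 58.8 CPM and macrophages at 35.5 CPM, and cDC1 were at 5.28 CPM, below T or NK cells at 16.5 CPM. cDC1 thus stood in the middle of the order in the library labelled WT and near its end in the library labelled KO. Empty droplets held 43.1 and 27.4 CPM of Tnfsf9, a level inside the interval of the WT-labelled cDC1 (34.8 to 62.9 CPM) and above that of the KO-labelled cDC1 (2.28 to 10.4 CPM).

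Icosl, the ICOS ligand, stood less far above other dendritic cells than most of these ligands did. Mature dendritic cells held 77.6 CPM (61.4 to 96.7) and 105 CPM (81.3 to 134), 1.61-fold and 2.46-fold above other dendritic cells, beside 3.91-fold and 2.43-fold for Cd86. In the library labelled WT cDC2 at 62.1 CPM and B cells at 60.5 CPM overlapped with them. Macrophages were at 9.80 and 9.44 CPM, below empty droplets at 12.9 and 12.1 CPM. Of the Icosl UMIs dendritic cells together held 42.7% and 55.9%, though they were 12.4% and 14.1% of cells.

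**Figure D2:**
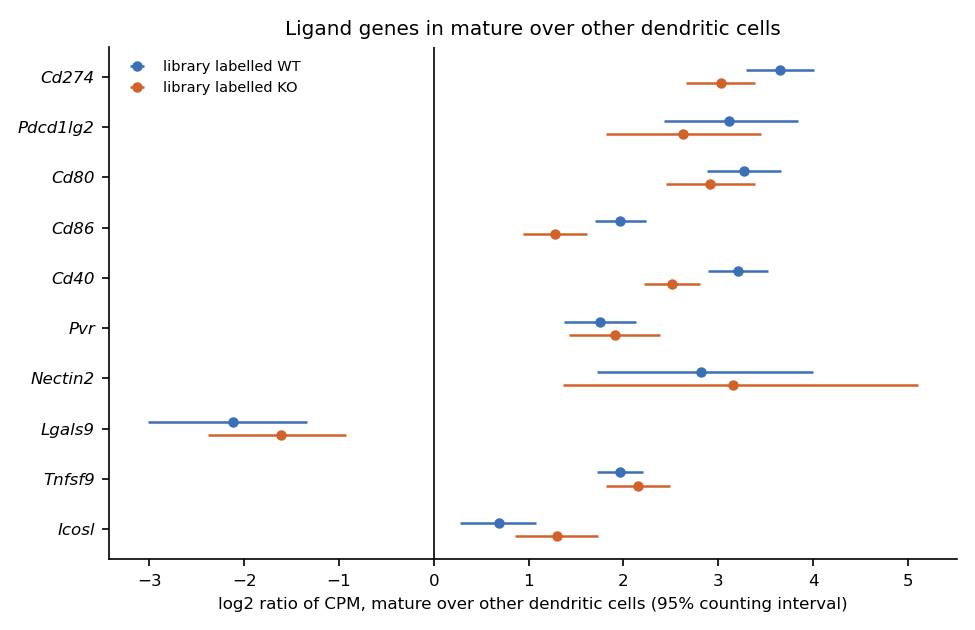
Log2 ratio of CPM in mature over all other dendritic cells for each ligand gene, with 95% counting intervals, in the library labelled WT (blue) and the library labelled KO (orange). Lgals9 lies at -2.12 and -1.61 and the other 9 genes lie above 0, from 0.68 for Icosl to 3.65 for Cd274 in the library labelled WT; Nectin2 in the library labelled KO rests on 13 UMIs.

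Cells with UMIs of 2 or more ligands were more common among mature dendritic cells than elsewhere. Higher levels of single ligands raise this share by themselves. Whether the 10 ligands were found together beyond that was not tested. After thinning to 1000 UMIs, 46.3% (38.0 to 54.7) and 41.9% (31.3 to 53.0) of mature cells held UMIs of 2 or more ligands, with a mean of 1.60 and 1.43 ligands per cell and up to 5. In cDC2 the shares were 7.93% and 8.14%, in monocytes 7.65% and 10.2%, and in macrophages 4.25% and 5.04%, all below the intervals of the mature cells. T or NK cells gave 0.668% and 1.11%. With all UMIs the shares were 95.9% and 91.9% in mature cells, at medians of 6908 and 6349.5 UMIs, and 8.35% and 10.8% in T or NK cells, at medians of 2829 and 2402.

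**Figure D3:**
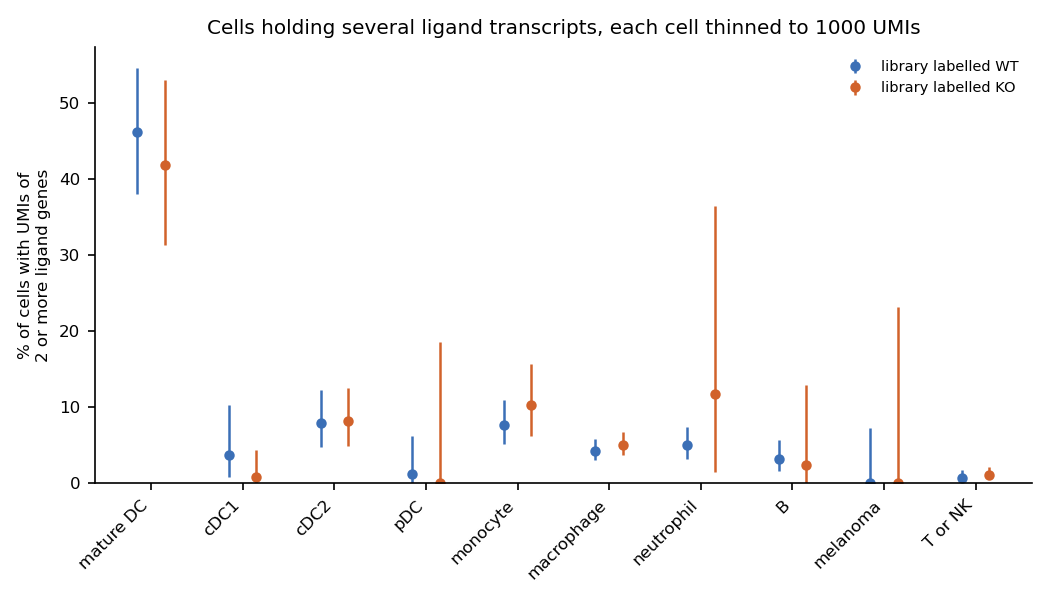
Percent of cells in each class with UMIs of 2 or more of the 10 ligand genes, after each cell was thinned to 1000 UMIs, with exact 95% binomial intervals, in the library labelled WT (blue) and the library labelled KO (orange). Mature dendritic cells stand at 46.3% and 41.9%, and cDC2 at 7.93% and 8.14%.

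The class that held the most UMIs of a ligand was not always the one with the highest level. Mature cells were 3.36% and 2.68% of cells and held 22.7% and 19.9% of Cd274 UMIs, 31.5% and 21.5% of Cd40 UMIs, 26.4% and 22.5% of Cd80 UMIs and 13.7% and 16.1% of Tnfsf9 UMIs. Among the gated classes these were the largest parts of Cd274 and Cd40 in the library labelled WT and of Cd80 in both. Macrophages held more of Cd40 in the library labelled KO (30.1%) and of Tnfsf9 in both (27.7% and 25.1%). Macrophages, with 21.0% and 25.9% of cells, held 44.1% and 45.3% of Lgals9 UMIs. Their part of the Cd274 UMIs was 11.2% and 22.9%, and of the Pdcd1lg2 UMIs 4.04% and 22.0%. Neutrophils held 14.0% of Cd274 UMIs and 18.6% of Pdcd1lg2 UMIs in the library labelled WT and 0.882% and 0.847% in the library labelled KO, where 17 neutrophils were gated. In bulk values over all cells, fewer cells of a type and less RNA per cell cannot be told apart. Over all cells Cd274 stood at 48.5 and 43.6 CPM.

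**Figure D4:**
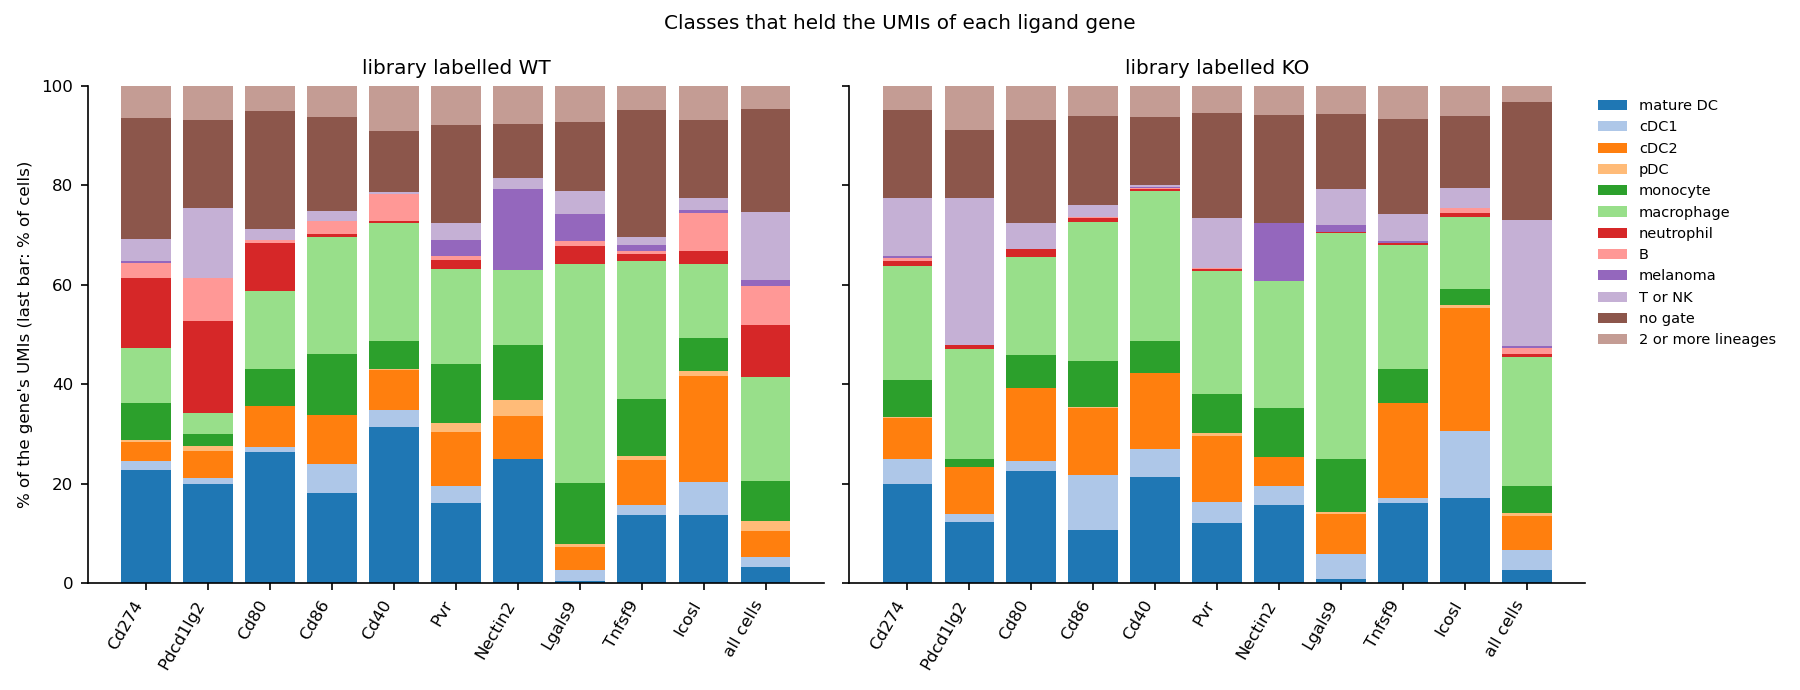
Percent of the UMIs of each ligand gene held by each class, with the percent of cells in the last bar, in the library labelled WT (left) and the library labelled KO (right). Mature dendritic cells are 3.36% and 2.68% of cells and hold 22.7% and 19.9% of Cd274 UMIs, and macrophages hold 44.1% and 45.3% of Lgals9 UMIs.

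Between the libraries, macrophages of the library labelled KO held more PD-1 ligand and Cd40 transcript and less Tnfsf9. Of the 10 ligands 3 were at least 1.5-fold higher, as were 7.3% of 10638 genes, and 1 was lower, as were 8.11%. Empty droplets held 16.8 and 28.3 CPM of Cd40, 55.7 and 51.3 CPM of Cd274 and 17.6 and 17.4 CPM of Pdcd1lg2, and the part of free RNA in these values was not tested. Cd40 levels were 26.5 and 47.4 CPM, with a log2 ratio of 0.84 (0.58 to 1.10). Cd274 was at 17.4 and 31.2 CPM, a log2 ratio of 0.84 (0.52 to 1.16). Its thinned shares of macrophages, 1.53% and 3.12%, were below those of T or NK cells. Whether expression was gained was not tested. The same holds for Pdcd1lg2, which went from 1.499 to 8.93 CPM (13 and 52 UMIs; log2 ratio 2.57, 1.68 to 3.58), in 1.42% and 5.16% of macrophages at full depth against 6.01% and 7.50% of T or NK cells.

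Tnfsf9 was at 69.9 and 35.5 CPM in macrophages, a log2 ratio of -0.98 (-1.21 to -0.75), and -0.68 without the cells that passed both the monocyte and the macrophage gate (171 and 208). Lgals9 had a log2 ratio of 0.32 (0.20 to 0.44), and 0.16 without those cells. Cd80 and Icosl had log2 ratios of -0.06 and -0.05, with intervals that included 0. Other values of the macrophages differed beside these ligands. Apoe was at 5176 and 3495 CPM, Cd68 at 1189 and 655 CPM and Cd74 at 5837 and 9657 CPM, the median depth was 8364 and 5986 UMIs, and the part of these in the ligand levels was not tested. Of the B cell markers outside the gate, Pax5 and Fcmr were near 0 in macrophages (1 and 0 UMIs each). Cd22 had 42 and 13 UMIs there.

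Monocytes shared 2 of the macrophage calls, Cd40 and Tnfsf9, while Cd274 moved the same way short of 1.5-fold. Of 8 ligands with at least 20 UMIs, 2 were at least 1.5-fold higher in the library labelled KO (12.5% of 7778 genes) and 1 was lower (10.2%). Cd40 was at 24.3 and 61.9 CPM, a log2 ratio of 1.35 (0.80 to 1.90), and was seen in 2.27% and 7.39% of thinned monocytes. Lgals9 was at 147 and 257 CPM, a log2 ratio of 0.80 (0.56 to 1.05). Tnfsf9 was at 110 and 58.8 CPM, a log2 ratio of -0.90 (-1.35 to -0.48) (-0.13 in summed UMIs of thinned cells). Of thinned monocytes 10.8% and 3.98% held a Tnfsf9 UMI. The thinned ratio and these shares come from separate random draws, each made a single time. The Cd274 log2 ratio in monocytes was 0.53 (0.04 to 1.01). Empty droplets of the library labelled KO also held more Cd40 and Lgals9 and less Tnfsf9, at the levels given above. The part of free RNA in the monocyte values was not tested.

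Among dendritic cells taken as a whole, 1 ligand was higher in the library labelled KO (7.32% of 10083 genes) and 3 were lower (10.9%). Lgals9 was at 49.2 and 79.9 CPM (log2 ratio 0.70, 0.45 to 0.95), Cd80 at 64.9 and 39.5 CPM (-0.72, -1.004 to -0.43), Nectin2 at 7.63 and 3.21 CPM (-1.25, -2.30 to -0.29) and Tnfsf9 at 125 and 73.8 CPM (-0.76, -0.97 to -0.56). The mature share of dendritic cells was 27.0% and 19.0%. With the 4 subsets given the same weight in both libraries 1 ligand was lower, with log2 ratios of -0.94 for Nectin2, -0.49 for Tnfsf9 and -0.38 for Cd80, and Lgals9 stayed higher at 0.61. The Lgals9 levels of both libraries lay below those of their empty droplets, 90.4 and 123 CPM.

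Within the subsets the ligands behaved differently. In mature dendritic cells 1 of 10 ligands was higher in the library labelled KO (12.5% of 6074 genes) and 1 lower (15%), and both intervals included 0. These were Lgals9, with a log2 ratio of 1.08 (-0.01 to 2.20), and Nectin2, with -0.80 (-2.17 to 0.41). Cd86, Cd80 and Tnfsf9 had log2 ratios of -0.50, -0.50 and -0.45 short of 1.5-fold, with intervals below 0. Cd40, at 0.09 (-0.18 to 0.35), and Cd274, at -0.24 (-0.53 to 0.04), did not differ beyond counting error. Leaving out the cell with fibroblast transcripts moved no count of these ligands.

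In cDC2, 2 of 9 ligands were higher (8.2% of 8361 genes) and 0 lower (8.87%). Cd40 was at 39.7 and 77.1 CPM, a log2 ratio of 0.96 (0.55 to 1.38), and Lgals9 at 64.6 and 99.6 CPM, a log2 ratio of 0.62 (0.29 to 0.96). These Lgals9 levels too lay below those of empty droplets, which were also higher in the library labelled KO. The part of free RNA in this difference was not tested. The Cd40 transcript was thus higher in cDC2, monocytes and macrophages of the library labelled KO. Its intervals in cDC1 and mature cells included 0.

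In cDC1, 0 of 7 ligands were higher (11% of 7265 genes) and 2 lower (7.94%). Tnfsf9 was at 47.3 CPM (47 UMIs in 82 cells) and 5.28 CPM (8 UMIs in 127 cells), a log2 ratio of -3.16 (-4.46 to -2.07). Cells with a Tnfsf9 UMI were 18 of 82 and 7 of 127, at medians of 12252 and 11476 UMIs. The part of free RNA, at the level of empty droplets given above, was not tested. Pvr was at 26.2 and 13.9 CPM, a log2 ratio of -0.92 (-1.82 to -0.03). Cd86, Lgals9 and Icosl, the ligands seen in the most cDC1, had intervals that included 0.

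**Figure D5:**
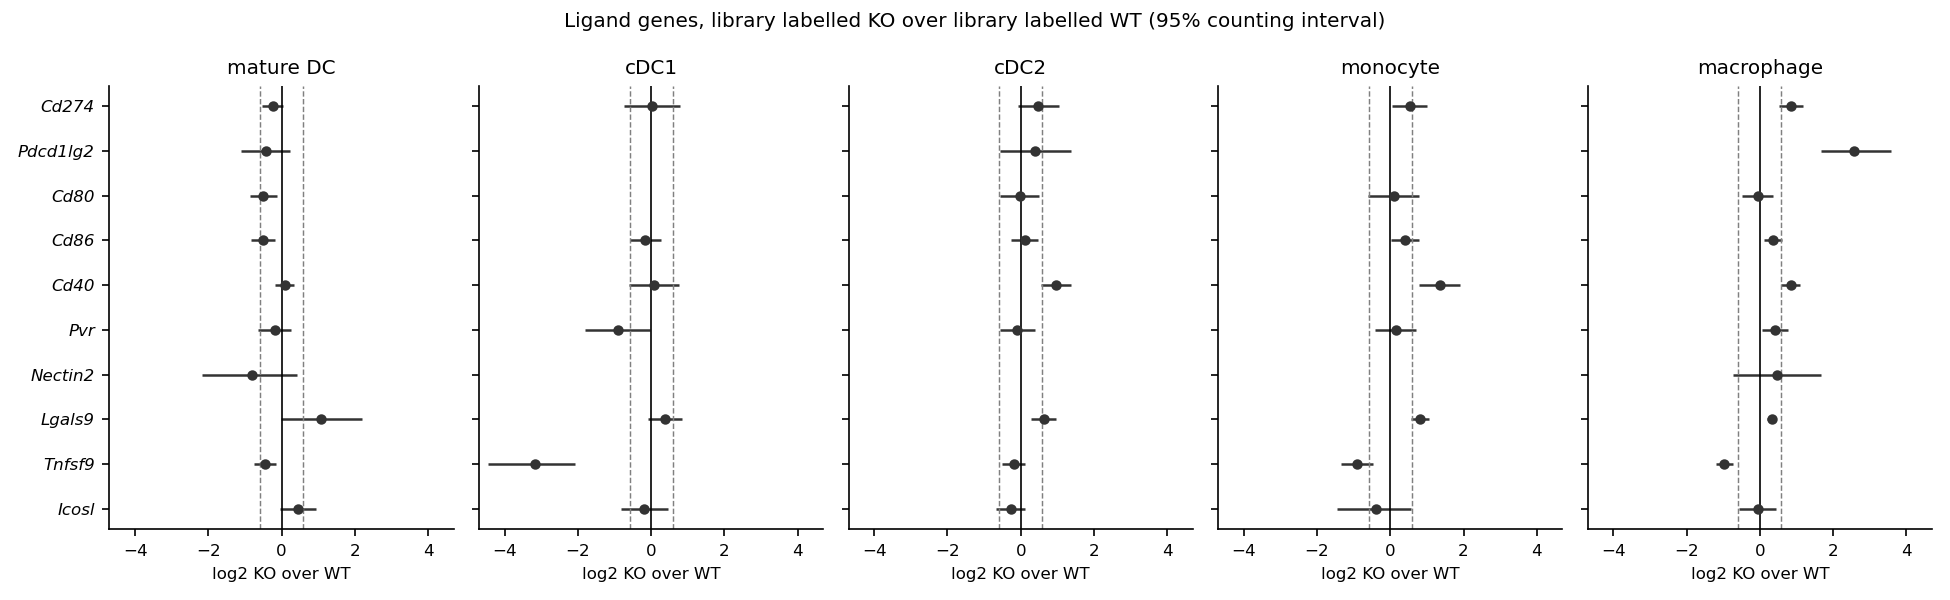
Log2 ratio of CPM in the library labelled KO over the library labelled WT for each ligand gene with at least 20 UMIs, by class, with 95% counting intervals; dashed lines mark 1.5-fold. Cd40 lies at 0.96 in cDC2, 1.35 in monocytes and 0.84 in macrophages, and Tnfsf9 at -3.16 in cDC1.

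Interferon response genes also differed between the libraries. Of 9 genes of the interferon gamma response 8 were at least 1.5-fold higher in macrophages of the library labelled KO, 6 of 8 measured in monocytes, 5 of 9 in cDC2, 5 of 8 in mature dendritic cells and 2 of 9 in cDC1. Over all genes the share higher was 7.3% in macrophages, 12.5% in monocytes, 8.2% in cDC2, 12.5% in mature dendritic cells and 11% in cDC1. In cDC1 1 interferon gamma gene was lower (7.94% of genes). The median log2 ratio of the list there was 0.12, beside 0.05 for all genes. Cxcl9, a chemokine for T cells, was at 6.23 and 175 CPM in macrophages and 2.55 and 152 CPM in cDC2. The GTPase gene Gbp2 was at 9.80 and 75.9 CPM in macrophages. In cDC1 Cxcl10, another such chemokine, was at 301 and 91.8 CPM, lower in the library labelled KO. All 6 genes of the type I interferon response, such as Isg15 and Rsad2, were higher in macrophages and in monocytes, 5 of 6 in cDC2, 2 of 4 in mature dendritic cells and 2 of 4 in cDC1. Whether these genes and the ligands moved for the same reason was not tested.

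Other ligand families were counted beside them, with no test of a difference from the 10 ligands. Of other B7 and CD28 family ligands, 0 of 3 measured were higher and 2 lower in macrophages. Vsig4, an inhibitory B7-related protein of resident macrophages, had 38 UMIs in the library labelled WT and 0 in the library labelled KO. Of other TNF superfamily ligands 3 of 5 were higher and 1 lower in macrophages, and of nectins and adhesion molecules 3 of 7 were higher and 0 lower. Of other ligands of inhibitory receptors 2 of 5 were higher and 0 lower in macrophages. Over all genes of macrophages 7.3% were higher and 8.11% lower. In mature dendritic cells Lgals3, which encodes galectin-3, was at 1338 and 625 CPM. In cDC1 the adhesion ligand Icam1 was at 140 and 70.7 CPM. Maturation genes were close to level in mature cells, with 1 of 12 higher and 0 lower in the library labelled KO and a median log2 ratio of -0.06, beside -0.02 for all genes.

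The receptors of these ligands and, for the receptor gene Cd40, its ligand gene Cd40lg were counted in T or NK cells. Of these 10 genes 5 were at least 1.5-fold higher in the library labelled KO, as were 15.3% of 9078 genes, and 0 were lower, as were 7.34%. Pdcd1, the PD-1 gene, was at 53.0 and 121 CPM, Ctla4 at 93.9 and 205 CPM and Tigit at 50.1 and 97.8 CPM. Also higher were Cd28, a stimulating receptor, at 131 and 225 CPM (log2 ratio 0.78, 0.57 to 0.997), and Cd96, at 24.8 and 37.5 CPM (0.60, 0.10 to 1.11). Tnfrsf9, the receptor of Tnfsf9, was at 127 and 151 CPM (log2 ratio 0.24, 0.01 to 0.47), and Icos at 130 and 129 CPM (-0.01, -0.25 to 0.22). The median log2 ratio of all genes in these cells was 0.13. The class mixes T cells and NK cells, and changes in its makeup cannot be told apart from changes per cell.

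The genes most like each ligand were found by Pearson's correlation of log2(CPM + 10) over 17 profiles of class and library, as a description. These profiles share libraries, and many come from related myeloid classes. Marcksl1 was the gene most like Cd80 (r = 0.92), H2-DMb2 was most like Icosl (0.94) and Jup was most like Pvr (0.93). Pvr was in turn the gene most like Tnfsf9 (0.91), and Cd86 and Cd40 were each 2nd on the other's list (0.89). Cd274 was most like Gdap10 (0.91) and Lgals9 most like D8Ertd738e (0.94). Among the ligands themselves Cd80 and Tnfsf9 correlated at 0.82, Cd274 and Cd80 at 0.81, and Lgals9 was negative with each of the 9 others, from -0.53 with Icosl to -0.06 with Cd86.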

How the data were processed

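Libraries of 5′ RNA ends (10x Genomics, V1.0) from CD45+ cells of B16 tumours were deposited as raw UMI counts per gene and barcode (31053 genes, 737280 barcodes; 35152477 and 24385843 UMIs in the libraries labelled WT and KO). Per the file headers the authors used Cell Ranger 3.1.0, and the build, per the submitters' processing notes, was mm10. The T cell receptor files were not used here.

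Computed from these counts with Python 3.11.15, NumPy 2.4.6 and SciPy 1.17.1: cells were barcodes with at least 1000 UMIs, 500 genes and at most 10% mitochondrial UMIs. A class needed at least 3 UMIs from at least 2 of its markers and a marker share above that of the library's empty droplets (10 to 100 UMIs). Cells in gates of 2 lineages were left out as possible doublets, with no doublet caller, and cells in both monocyte and macrophage gates count as macrophages. UMIs were summed per class and divided by its total (CPM), with exact Poisson intervals. Log2 ratios have exact conditional binomial intervals and shares exact Clopper-Pearson intervals, at 95%. A gene was called higher or lower at 1.5-fold with at least 20 UMIs over both groups compared. These calls are of size and not of significance. Where the text names further list genes, their interval lay wholly beyond 1.5-fold, and at most 4 per class and direction were eligible. Cd28, Cd96, Tnfrsf9 and Icos are named outside this rule, after their values were seen. Relb, Cd83, Il12b and, for macrophages and monocytes, Isg15 are also named outside it, as examples of their lists. The ratio was tested on simulated counts. The ligands, markers and lists were chosen with earlier results of these data known. Of 16 alternatives, leaving out cells with collagen transcripts and leaving mature cells out of the dendritic class were chosen after seeing the data.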

Additional observations from a re-analysis of the deposited data

Results flagged for a closer look

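Cd86 and Pvr had opposite directions between the libraries in different classes, with each counting interval on its own side of 0. The log2 ratio of Cd86, library labelled KO over library labelled WT, was 0.41 in monocytes and 0.36 in macrophages and -0.50 in mature dendritic cells. That of Pvr was 0.42 in macrophages and -0.92 in cDC1. With 1 library per genotype the difference between classes was not tested.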

How the results depend on the processing

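No paired analysis was possible because each genotype had 1 library and the number 5 in the titles names the 5′ chemistry. The 32 counts were recomputed under 16 alternatives, giving 454 values, of which 427 stayed within 1.5 times the reported count and 27 moved. The 88 ratios of single genes gave 1126 values, of which 49 moved by more than counting error. With at least 2000 UMIs and 800 genes per cell, 2 ratios of at least 1.5-fold changed sign, Cd80 in neutrophils from 0.64 to -0.27 and Cd40 in B cells from -0.79 to 0.36. Both rest on few cells of the library labelled KO. The counts of ligands higher in macrophages and higher in mature over other dendritic cells moved under none of these. With cells thinned to 1000 UMIs 0 ligands were lower in monocytes and in cDC1, 1 was lower in cDC2, 0 were higher and 2 lower in mature cells, and 0 were lower in mature over other dendritic cells of the library labelled WT. Interferon gamma genes higher were then 0 in cDC1 and 3 in mature cells, and type I genes higher were 2 in monocytes, 1 in cDC1, 2 in cDC2 and 1 in mature cells. With a UMI minimum of 50, 1 ligand was lower in cDC1, 0 were higher and 0 lower in mature cells, and 1 interferon gamma gene was higher in cDC1. With means of per-cell CPM 4 ligands were higher in monocytes and 2 in mature cells. Type I genes higher in cDC1 were 1 there, with median ratio size factors, with totals without mitochondrial and ribosomal protein genes, and with at least 5 marker UMIs, where 1 ligand was lower in cDC1. With a marker share above 2 times that of empty droplets 1 ligand was higher in cDC2, and without the top 5% of cells by UMIs 2 were lower in mature cells. In the dendritic class 1 ligand was lower with subsets at the same weight, and 1 without mature cells. The UMI minimum, also kept at 20 for thinned cells, leaves fewer genes to count. After thinning, Tnfsf9 and Pvr in cDC1 fell below it and were not counted. So did Lgals9 in mature over other dendritic cells of the library labelled WT. The cause of the other moves was not tested. Depth limits Nectin2, with 92 and 51 UMIs over all cells, and the 17 neutrophils, 18 pDC and 14 melanoma cells of the library labelled KO.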

Other observations

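Cells in no gate, 900 in the library labelled WT and 760 in the library labelled KO, held 24.4% and 17.6% of the Cd274 UMIs and 25.4% and 19.3% of the Tnfsf9 UMIs. Of these cells 20.8% and 12.2% had a Cd274 UMI, 8.22% and 5.00% after thinning to 1000 UMIs. They belong to no comparison above.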
